A study of Mus musculus with 18 samples.

Results

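The 10 genes described here are Pde4b, Ier5, Sesn3, Prelp, Thsd4, Padi1, Sncaip, Tubb6, Rrad and Aldh2, out of 52636 genes measured in mouse mammary cells. They were chosen by measured gene counts of the D542G and WT libraries, because the difference between 2 sorting gates, called N and ML, was larger in mice with the D542G mutation of Esr1 than in wild-type (WT) mice. Esr1 encodes estrogen receptor alpha (ERα), the nuclear receptor through which estradiol acts on the mammary gland. That difference of differences is therefore given below as a description, without a test, and so is every comparison made with D542G and WT libraries alone. The gate change in mice with the second Esr1 mutation, Y541S, comes from libraries whose levels do not enter the difference between D542G and WT, and it was tested. The fit estimates the spread of each gene from all 18 libraries together, so this test is not fully independent of the choice.

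The 18 RNA-seq libraries form 6 groups of 3 biological replicates: D542G N, D542G ML, Y541S N, Y541S ML, WT N and WT ML. D542G and Y541S are substitutions in ERα, and WT mice carry neither. The labels do not say how the alleles were introduced, whether they were heterozygous or which strain was used. Every mouse was 6 months of age, had been implanted with E2 (estradiol) plus P4 (progesterone) pellets, and was given the ERα antagonist giredestrant orally, 30 mg/kg daily, over 4 days. No group was free of hormone or of the antagonist, so neither was compared. ML stands for mature luminal cells, the estrogen-responsive layer of the gland, and N for a population that the labels name as another cell type, while giving mature luminal cells as the source of both.

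Mature luminal cells sense estradiol and progesterone and pass the signal on to neighbouring cells, and basal (myoepithelial) cells surround them and contract. The 10 genes belong to no single pathway. Pde4b, Rrad, Ier5 and Sesn3 restrain or report signalling and stress, Prelp and Thsd4 encode matrix proteins, Padi1 and Aldh2 are enzymes, and Tubb6 and Sncaip are linked to the cytoskeleton and to protein aggregates.

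Libraries held 34797778 to 49507144 gene counts, and 18298 genes were tested, the 10 among them. Levels are given as CPM (counts scaled to a common library total with TMM factors) and changes as log2 of N over ML with the standard error. CPM is not divided by gene length, so levels are not compared between genes. Markers of the labelled cell type were present in the ML libraries, where the summed level of 10 hormone-sensing markers was 6203 to 13065 CPM. In N libraries it was 2709 to 3386 CPM in D542G, 747 to 2160 CPM in Y541S and 539, 646 and 9710 CPM in WT. Summed basal markers (8 genes) were at 13856 to 15542 CPM in D542G N, 18887 to 35105 CPM in Y541S N and 25837, 35824 and 5007 CPM in WT N, against 141 to 1690 CPM in the ML libraries of both mutants and 251 to 6302 CPM in those of WT. Library WT N 3 therefore stood apart from the other WT N libraries in both sums, on the side of the ML libraries. On the first principal component it lay at −7.62 while the other N libraries lay between 33.1 and 78.5. Its luminal progenitor markers, at 534 CPM, were on the side of WT N 1 and WT N 2 (273 and 410 CPM). The WT ML libraries had 2529 to 3826 CPM of them. Keratinocyte markers in WT N 3, at 3545 CPM, were above those of every ML library (up to 2962 CPM). The labels do not settle whether its gate label is right. Without it, 2965 genes were called between the WT gates, against 646 with it, and 149 against 20 for the difference between D542G and WT. Library Y541S N 3 stood apart in epidermal keratinocyte markers (9 genes), with 21179 CPM, while Y541S N 1 and Y541S N 2 had 1341 and 1638 CPM. Libraries Y541S N 2 and Y541S ML 2 stood apart in luminal progenitor markers (7 genes), with 18903 and 17107 CPM, while Y541S N 1 and Y541S N 3 had 384 and 287 CPM and Y541S ML 1 and Y541S ML 3 had 3112 and 3634 CPM. In Y541S ML 2 this was above the summed hormone-sensing markers. The WT ML libraries were not alike either. Basal markers reached 6302 CPM in library 1 and 4706 CPM in library 2, but 251 CPM in library 3. Hair follicle markers (5 genes with counts) were at 5061, 1090 and 1.03 CPM in the same order. B and plasma cell markers (6 genes) were at 360, 639 and 0.28 CPM. Y541S ML 3 had 2833 CPM of hair follicle and 2962 CPM of keratinocyte markers. Y541S ML 2 had 1159 CPM of B and plasma cell markers. The keratinocyte markers were at 2942 to 3974 CPM in D542G N and at 29526, 36376 and 3545 CPM in WT N. The part of these marker differences in the results on the 10 genes was not tested. In such bulk libraries, fewer cells of a type and less RNA per cell cannot be told apart.

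In the D542G mice 9 of the 10 genes were higher in every N library than in every ML library, the exception being Padi1 (every N library was above every ML library for 19.4% of all genes). In Y541S mice Pde4b, Sncaip, Tubb6, Rrad and Aldh2 also rose in N, while Ier5 and Thsd4 fell. In WT mice Ier5, Prelp and Thsd4 were lower in every N library than in every ML library, and Padi1 had no count in the N gate. Pde4b, Rrad and Aldh2 were higher in every WT N library than in every WT ML library. The WT gates did not overlap for 18.9% of all genes. The label under which the genes were grouped, a gate change that depends on D542G, thus describes how D542G stands to WT. In 5 genes a rise was also called with Y541S, though the call of Sncaip was lost in 13 of 18 fits that left out 1 library. No test result is given on whether the rise differed between the mutants, or between Y541S and WT. The D542G and WT libraries chose these genes, so such a result would depend on that choice.

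**Figure D1:**
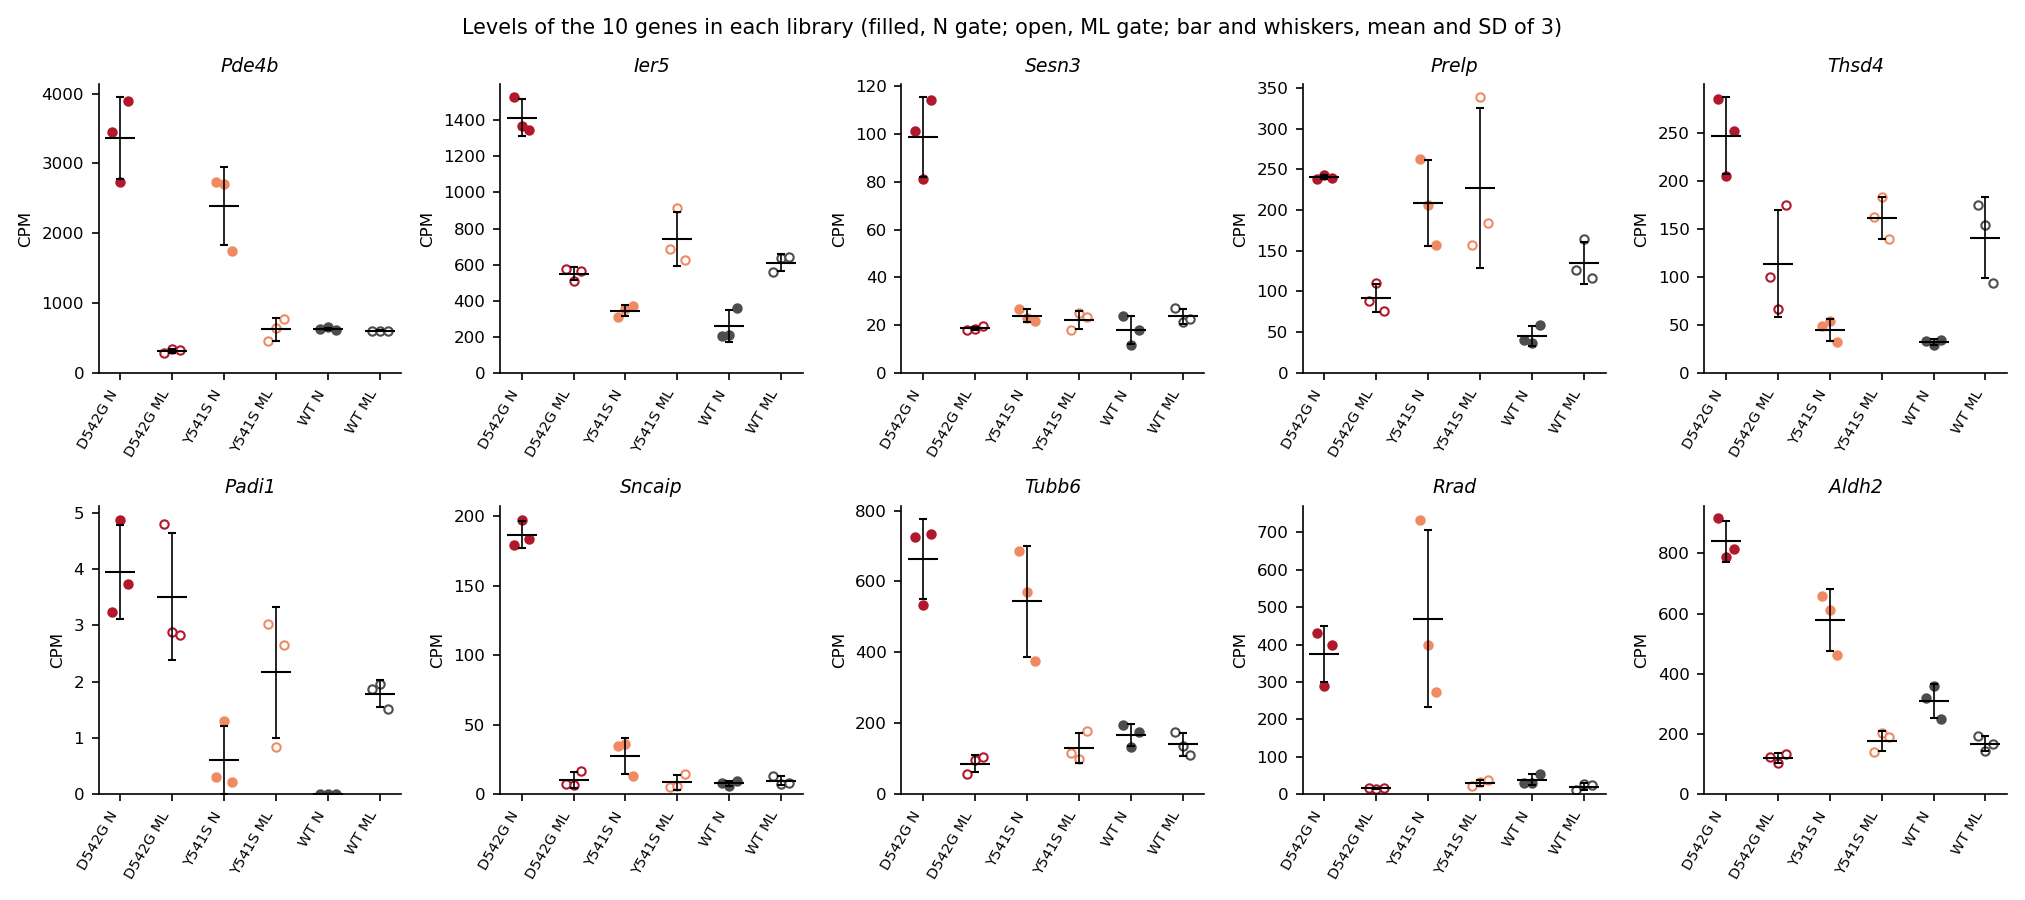
Level of each of the 10 genes in each library, in CPM on a linear axis that starts at 0, with groups in the order D542G N, D542G ML, Y541S N, Y541S ML, WT N and WT ML. Filled points are N libraries, open points are ML libraries, and bars with whiskers are the mean and SD of 3; the D542G N libraries are above all WT N libraries in each of the 10 panels.

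The difference of the gate changes, D542G less WT, was between 1.91 and 4.44 on the log2 scale in the 9 genes other than Padi1. The 10 genes are among the first 13 of the 18298 by the p-value of that contrast, and 20 genes (0.109%) passed an adjusted p of 0.05 in it, 19 (0.104%) with a higher and 1 (0.00547%) with a lower gate change in D542G. Just inside that threshold lay Cx3cl1, with a difference of 1.87 ± 0.32, and just outside it lay Cxcl1, with 4.18 ± 0.75; neither is among the 10.

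Pde4b (ENSMUSG00000028525, chr4:102087543-102607259, plus strand, GRCm38) encodes a phosphodiesterase that breaks down cyclic AMP and so shortens signals from hormone receptors that raise it. Its level was 3446, 2730 and 3897 CPM in the D542G N libraries and 284, 339 and 332 CPM in the D542G ML libraries. In Y541S mice it was 2730, 2702 and 1749 CPM in N and 449, 648 and 766 CPM in ML. WT mice had 624, 649 and 611 CPM in N and 596, 605 and 604 CPM in ML. All N libraries of both mutants were above every other library, the ranges of D542G N and Y541S N met, and the D542G ML libraries were the lowest of the 18. The log2 change of N over ML was 3.40 ± 0.24 in D542G and 0.06 ± 0.22 in WT, and the WT libraries spanned a narrow range in both gates. In Y541S Pde4b rose by 1.94 ± 0.23 (edgeR's quasi-likelihood test, Benjamini-Hochberg adjusted p = 0.000267, higher in 3 of 3 pairs of libraries with the same number). On the log2 scale D542G was 2.42 ± 0.23 above WT in the N gate and 0.92 ± 0.22 below WT in the ML gate. Both values come from the libraries that chose the genes and carry no test. Between D542G ML and WT ML, edgeR called 0 of all 18298 genes.

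Rrad (ENSMUSG00000031880, chr8:104628070-104631327, minus strand) encodes a small GTPase of the RGK family, which holds back voltage-gated calcium channels in muscle and nerve. The D542G N libraries had 432, 289 and 400 CPM and the D542G ML libraries 16.4, 15.03 and 18.2 CPM. In Y541S it was at 734, 400 and 275 CPM in N and at 22.6, 32.1 and 38.0 CPM in ML. WT N libraries had 30.0, 31.1 and 55.5 CPM, and WT ML libraries 10.4, 26.2 and 25.1 CPM. Both mutants had far more Rrad in N than any ML library did, with D542G N and Y541S N overlapping, and in WT the N libraries lay just above the ML libraries. The gate change was 4.50 ± 0.45 in D542G and 0.92 ± 0.39 in WT. In Y541S Rrad rose by 3.92 ± 0.43 (edgeR adjusted p = 0.000190, higher in 3 of 3 pairs), the largest Y541S change of the 10. About 8.94% of its exon bases also lie in an antisense gene, Gm33023, and whether the counting used the strand is not given in the sources used here.

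Ier5 (ENSMUSG00000056708, chr1:155096361-155099636, minus strand) is an immediate early gene, switched on quickly by growth factors and stress, whose product acts on the heat shock factor HSF1. It had 1531, 1368 and 1347 CPM in D542G N and 575, 509 and 565 CPM in D542G ML. In Y541S the order of the gates was the opposite, with 310, 352 and 369 CPM in N and 685, 915 and 628 CPM in ML. The WT libraries had 205, 211 and 360 CPM in N and 559, 635 and 641 CPM in ML. No gate pair overlapped within any genotype, D542G N stood above all 15 other libraries, and Y541S N and WT N were the lowest groups and overlapped. On the log2 scale N over ML was 1.36 ± 0.22 in D542G and −1.24 ± 0.22 in WT. In Y541S it fell by 1.11 ± 0.22 (edgeR adjusted p = 0.00659, lower in 3 of 3 pairs). Without Y541S N 1 this change was −1.02 with an adjusted p of 0.0506, and without Y541S N 2 and Y541S ML 2 it was −0.95 with an adjusted p of 0.0837. Without WT N 3, the WT N library that stood apart, the WT change was −1.55. The difference of D542G to WT was then 2.92, against 2.61 with WT N 3 included.

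Sesn3 (ENSMUSG00000032009, chr9:14275067-14333101, plus strand) encodes a sestrin, a target of FoxO transcription factors that restrains the growth kinase complex mTORC1. The 3 D542G N libraries had 101, 81.0 and 114 CPM. The 15 others lay between 11.8 and 27.3 CPM, with 17.9, 18.5 and 19.5 CPM in D542G ML, 26.9, 23.1 and 21.6 CPM in Y541S N, 17.8, 25.2 and 23.3 CPM in Y541S ML, 23.6, 11.8 and 18.1 CPM in WT N and 27.3, 21.4 and 22.3 CPM in WT ML. Only the D542G N libraries were set apart, and the neighbouring groups in the order of the other 5 means overlapped. N over ML was 2.41 ± 0.24 in D542G and −0.41 ± 0.23 in WT. In Y541S it was 0.11 ± 0.23 and did not pass the test (edgeR adjusted p = 0.837), with a 95% interval of −0.40 to 0.61.

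The proximal promoters of Ier5, Sesn3, Thsd4 and Padi1 are printed here because they depart from the pattern of Pde4b: Ier5 and Thsd4 were lower in N than in ML in Y541S and WT alike, Sesn3 stood out in D542G N alone, and Padi1 had no count in WT N. Each is the RefSeq window of 250 bases before to 50 bases after a transcription start (GRCm38.p6), 5′ to 3′ on the strand of the gene, and capitals mark CCAAT boxes (CCAAT, either strand) and GC boxes (GGGCGG, either strand).
Ier5, chr1:155099587-155099886, minus strand: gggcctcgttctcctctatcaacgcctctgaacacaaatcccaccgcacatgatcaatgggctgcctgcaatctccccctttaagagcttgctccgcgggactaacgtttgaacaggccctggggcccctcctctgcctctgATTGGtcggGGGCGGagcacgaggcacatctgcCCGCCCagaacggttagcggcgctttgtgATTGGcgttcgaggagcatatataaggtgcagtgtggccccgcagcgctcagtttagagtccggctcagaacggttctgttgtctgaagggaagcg
Sesn3, chr9:14276051-14276350, plus strand: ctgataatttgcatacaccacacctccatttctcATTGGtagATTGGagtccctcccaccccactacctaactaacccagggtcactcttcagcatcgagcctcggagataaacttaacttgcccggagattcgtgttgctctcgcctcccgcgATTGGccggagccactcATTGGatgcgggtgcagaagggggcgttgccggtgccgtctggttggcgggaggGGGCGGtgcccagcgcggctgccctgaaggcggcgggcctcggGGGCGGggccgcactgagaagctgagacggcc
Thsd4, chr9:60510986-60511285, minus strand: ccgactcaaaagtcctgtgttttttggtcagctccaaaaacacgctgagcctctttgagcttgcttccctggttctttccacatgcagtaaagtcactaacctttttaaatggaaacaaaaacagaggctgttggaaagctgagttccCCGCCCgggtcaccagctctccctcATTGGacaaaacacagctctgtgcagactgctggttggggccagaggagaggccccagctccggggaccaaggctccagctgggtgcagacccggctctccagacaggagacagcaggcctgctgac
Padi1, chr4:140845729-140846028, minus strand: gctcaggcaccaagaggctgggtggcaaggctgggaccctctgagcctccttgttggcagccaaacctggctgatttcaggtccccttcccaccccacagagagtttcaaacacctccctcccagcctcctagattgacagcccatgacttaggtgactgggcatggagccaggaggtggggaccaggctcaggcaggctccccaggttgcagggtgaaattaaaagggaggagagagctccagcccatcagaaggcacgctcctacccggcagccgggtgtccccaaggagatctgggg
The Ier5 window holds 2 CCAAT and 2 GC boxes, that of Sesn3 4 and 2, the printed window of Thsd4 1 of each, and that of Padi1 neither. The second Thsd4 window, chr9:60141171-60141470, holds neither box. Prelp also departs from the pattern of Pde4b, and its window, not printed, holds 1 CCAAT and 0 GC boxes. The Pde4b windows that start at chr4:102569810 and chr4:102587308 hold 1 CCAAT each, and no Pde4b window holds a GC box. Whether the boxes go with the levels was not tested. Of all 32851 such windows 37.4% hold a CCAAT and 35.7% a GC box. The letters TATAAA, searched on the strand of the gene and present in 8.32% of all windows, are in none of the 10 windows found for 6 of the genes (Pde4b 4, Thsd4 2, and 1 each for Ier5, Sesn3, Prelp and Padi1). Other spellings of the TATA box were not searched, and the Ier5 window holds tatataag. The lack of TATAAA is therefore not the lack of a TATA box. None of these 10 windows held the palindromic estrogen response element (0.0700% of all windows), the cyclic AMP response element TGACGTCA (1.79%), the AP-1 motif TGANTCA (7.81%) or the forkhead motif TGTTTAC (3.65%), each searched on both strands. The searches for CCAAT boxes, GC boxes and the letters TATAAA were added after the levels had been seen.

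Prelp (ENSMUSG00000041577, chr1:133910304-133921414, minus strand) encodes a small leucine-rich proteoglycan that anchors basement membranes to connective tissue. D542G N had 238, 243 and 239 CPM, and D542G ML had 88.8, 110 and 76.2 CPM. Levels in Y541S were 263, 207 and 157 CPM in N and 157, 339 and 184 CPM in ML. The WT N libraries had 40.5, 36.6 and 58.7 CPM and the WT ML libraries 126, 165 and 116 CPM. The gates were apart in D542G, with N above ML, and in WT, with N below ML, but in Y541S they overlapped. WT N was below all other groups and overlapped none of them. N over ML was 1.39 ± 0.29 in D542G and −1.58 ± 0.29 in WT. For Y541S it was −0.12 ± 0.28 (edgeR adjusted p = 0.852, 95% interval −0.74 to 0.50), with 1 pair higher and 2 pairs lower. Of its exon bases 9.68% lie in an antisense gene, Gm15851.

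Thsd4 (ENSMUSG00000032289, chr9:59966931-60522046, minus strand) encodes an ADAMTS-like protein without protease activity that binds fibrillin and promotes the assembly of microfibrils. It had 285, 205 and 251 CPM in D542G N and 99.2, 66.6 and 175 CPM in D542G ML. In Y541S it was at 48.2, 54.3 and 32.2 CPM in N and at 162, 183 and 139 CPM in ML, and in WT at 32.8, 28.7 and 34.1 CPM in N and at 174, 154 and 93.8 CPM in ML. As with Ier5, the gates did not overlap in any genotype, D542G N was the highest group, and Y541S N and WT N were the lowest and overlapped. The ML groups of the 3 genotypes overlapped one another. N over ML was 1.12 ± 0.32 in D542G and −2.14 ± 0.33 in WT. In Y541S Thsd4 fell by 1.85 ± 0.32 (edgeR adjusted p = 0.00341, lower in 3 of 3 pairs).

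Padi1 (ENSMUSG00000025329, chr4:140812983-140845778, minus strand) encodes a peptidylarginine deiminase, an enzyme that turns arginine in proteins into citrulline and is known from the epidermis. It was scarce throughout, with 146, 246 and 159 counts (3.24, 4.87 and 3.73 CPM) in D542G N and 190, 134 and 137 counts (4.81, 2.88 and 2.83 CPM) in D542G ML. Y541S N had 13, 52 and 9 counts and Y541S ML 127, 34 and 117 counts. WT N had 0 counts in all 3 libraries, which allows up to 3 counts or 0.0740 to 0.0776 CPM in each, and WT ML had 78, 71 and 59 counts. The D542G gates overlapped, unlike those of the other 9 genes, so the gap between D542G and WT came from the N gate, where WT libraries had none. Against a floor of 3 counts per library, D542G N was at least 52.2-fold higher than WT N, and WT N was at least 23.6-fold lower than WT ML. The D542G gate change itself was 0.17 ± 0.65. In Y541S it was −1.82 ± 0.67 and missed the threshold (edgeR adjusted p = 0.132, 95% interval −3.29 to −0.35), with 2 pairs lower and 1 higher. Without Y541S N 2 it was −3.03 with an adjusted p of 0.0204, and without Y541S N 2 and Y541S ML 2 it was −3.41 with an adjusted p of 0.0117. An overlapping gene, Gm13032, shares 32.0% of the exon bases of Padi1. Padi1 had no count in WT N 1 and WT N 2, where the epidermal keratinocyte markers were highest of all 18 libraries.

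Aldh2 (ENSMUSG00000029455, chr5:121566027-121593824, minus strand) encodes the mitochondrial enzyme that oxidises acetaldehyde and other reactive aldehydes. Its levels were 916, 789 and 813 CPM in D542G N and 125, 103 and 135 CPM in D542G ML. In Y541S they were 660, 613 and 464 CPM in N and 141, 203 and 190 CPM in ML. WT N had 321, 361 and 248 CPM, and WT ML 195, 144 and 166 CPM. The N gate was above the ML gate in all genotypes with no overlap, and the N groups were ordered D542G, Y541S and WT without overlap. N over ML was 2.80 ± 0.22 in D542G and 0.88 ± 0.21 in WT, so the difference between them, 1.91 ± 0.29, was the smallest of the 9 genes other than Padi1. In Y541S Aldh2 rose by 1.70 ± 0.21 (edgeR adjusted p = 0.000336, higher in 3 of 3 pairs).

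Tubb6 (ENSMUSG00000001473, chr18:67390717-67402749, plus strand) encodes a beta-tubulin isotype, a building block of microtubules. It was at 725, 535 and 734 CPM in D542G N and at 58.7, 95.7 and 105 CPM in D542G ML. Y541S had 685, 570 and 377 CPM in N and 115, 99.6 and 179 CPM in ML. WT had 195, 134 and 174 CPM in N and 175, 137 and 111 CPM in ML. The mutant N groups overlapped each other and no other group, and the 2 WT groups overlapped. The gate change was 2.94 ± 0.32 in D542G and 0.25 ± 0.29 in WT. In Y541S Tubb6 rose by 2.05 ± 0.31 (edgeR adjusted p = 0.00116, higher in 3 of 3 pairs).

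Sncaip (ENSMUSG00000024534, chr18:52767709-52915935, plus strand) encodes synphilin-1, a protein known from aggregates in neurons. D542G N had 179, 198 and 183 CPM, against 7.51, 6.90 and 16.7 CPM in D542G ML. In Y541S it had 34.7, 35.9 and 12.99 CPM in N and 5.06, 5.80 and 14.8 CPM in ML. WT N had 8.15, 6.13 and 9.72 CPM and WT ML 13.4, 7.61 and 7.87 CPM. D542G N was far above all other libraries, Y541S N 1 and Y541S N 2 came next, and Y541S N 3 lay inside the range of the remaining groups. N over ML was 4.17 ± 0.52 in D542G, with a difference to WT of 4.44 ± 0.68, and −0.27 ± 0.46 in WT. In Y541S Sncaip rose by 1.70 ± 0.47 (edgeR adjusted p = 0.0435), with 2 of 3 pairs higher. This call rested on single libraries: it was lost in 13 of 18 fits that left out 1 library (adjusted p up to 0.181), in the fit with pairs as blocks (1.80, adjusted p = 0.103) and with the Y541S libraries alone (1.74, adjusted p = 0.136). Without Y541S ML 3 the change was 2.35 with an adjusted p of 0.0153, and without Y541S N 2 and Y541S ML 2 it was 1.27 with an adjusted p of 0.290.

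**Figure D2:**
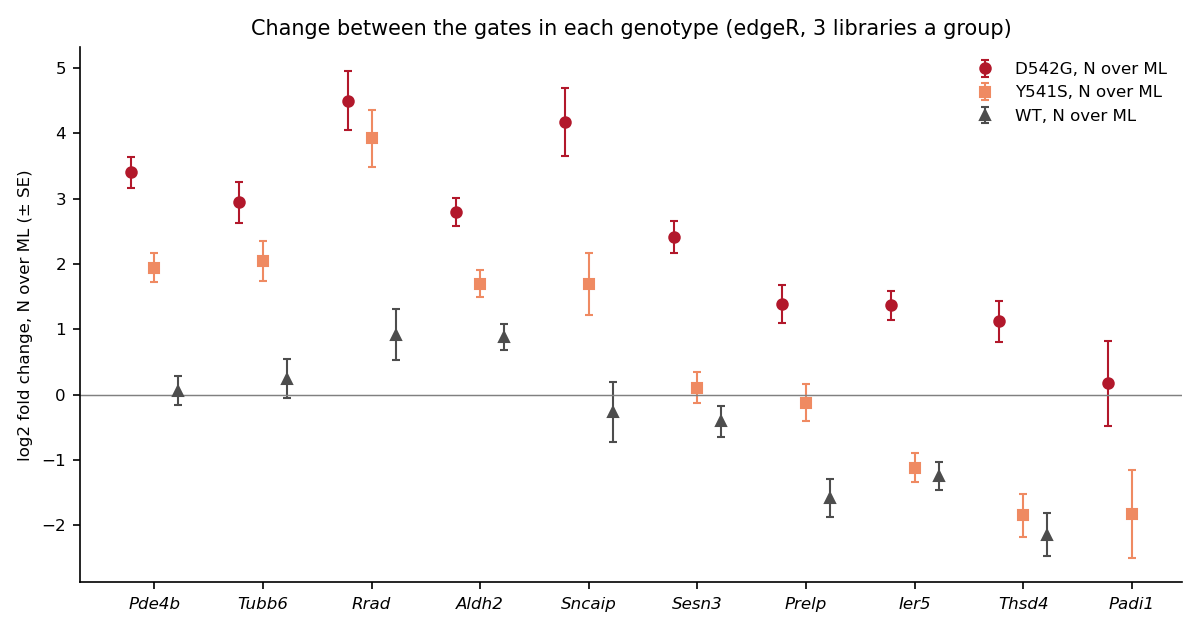
Log2 change of N over ML with its standard error in D542G (circles), Y541S (squares) and WT (triangles), from edgeR with 3 libraries a group. In Pde4b, Tubb6, Rrad, Aldh2 and Sncaip the Y541S value is above 0, and in Ier5 and Thsd4 it lies beside the WT value; no WT value is drawn for Padi1, which had no count in WT N.

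Counted over the 10 genes, 7 passed the test in Y541S, 5 higher and 2 lower in N, against 1272 of the 18298 genes (6.95%), of which 773 (4.22%) were higher and 499 (2.73%) lower. Sesn3, Prelp and Padi1 did not pass. The median Y541S gate change was 0.90 over the 10 genes and −0.02 over all genes. The count of 7 was 5 to 7 in the fits that left out 1 library, 6 with the pairs as blocks and 8 with limma-voom, and it was 7 without WT N 3 and Y541S N 3. It was 6 with the Y541S libraries alone in the fit, where 1101 of all genes were called. Without Y541S N 2 and Y541S ML 2 it was also 6, with Ier5 and Sncaip lost and Padi1 gained, while 445 of all genes were called. In D542G the gate change alone passed an adjusted p of 0.05 for 9.2% of all genes. In WT 7 of the 10 did not overlap, against 18.9% of all genes, and 3.53% of all genes passed. Nothing is read from these D542G and WT counts, since those libraries chose the genes. Y541S N and Y541S ML did not overlap in 6 of the 10, against 30.0% of all genes.

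Between genotypes within the gates, each of the 10 was higher in every D542G N library than in every WT N library, as were 13.0% of all genes. In the ML gate 8 of the 10 fitted changes of D542G over WT were below 0, with a median of −0.33. Pde4b, Sesn3, Prelp, Tubb6 and Aldh2 were lower in every D542G ML library than in every WT ML library (4.74% of all genes were), and Padi1 was higher in every one. Of all 18298 genes edgeR called 0 (0.0%) between D542G ML and WT ML, and 1129 had an unadjusted p under 0.05. In 7 of the 10 every Y541S N library was above every WT N library (9.45% of all genes), and Y541S ML and WT ML overlapped in all 10 (12.6% of all genes did not). The D542G and Y541S comparisons share the WT libraries. Because the D542G and WT libraries chose the genes, nothing is read from the counts of the 10 in this paragraph.

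Across the 18 libraries the closest correlations joined 4 of the genes. Among Pde4b, Tubb6, Rrad and Aldh2 the correlation of log2(CPM + 1) was 0.917 to 0.974 in all 6 pairs, and with Sncaip added it was 0.777 to 0.974 in 10 pairs. Ier5 and Thsd4 correlated at 0.909, and Sesn3 and Sncaip at 0.918. Sesn3 correlated alike with Pde4b (0.748) and Ier5 (0.753), and Prelp reached 0.363 to 0.673 with the others. Over all 45 pairs it was −0.13 to 0.974. These are descriptions over libraries that share 2 gates and 3 genotypes, and they carry no test.

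**Figure D3:**
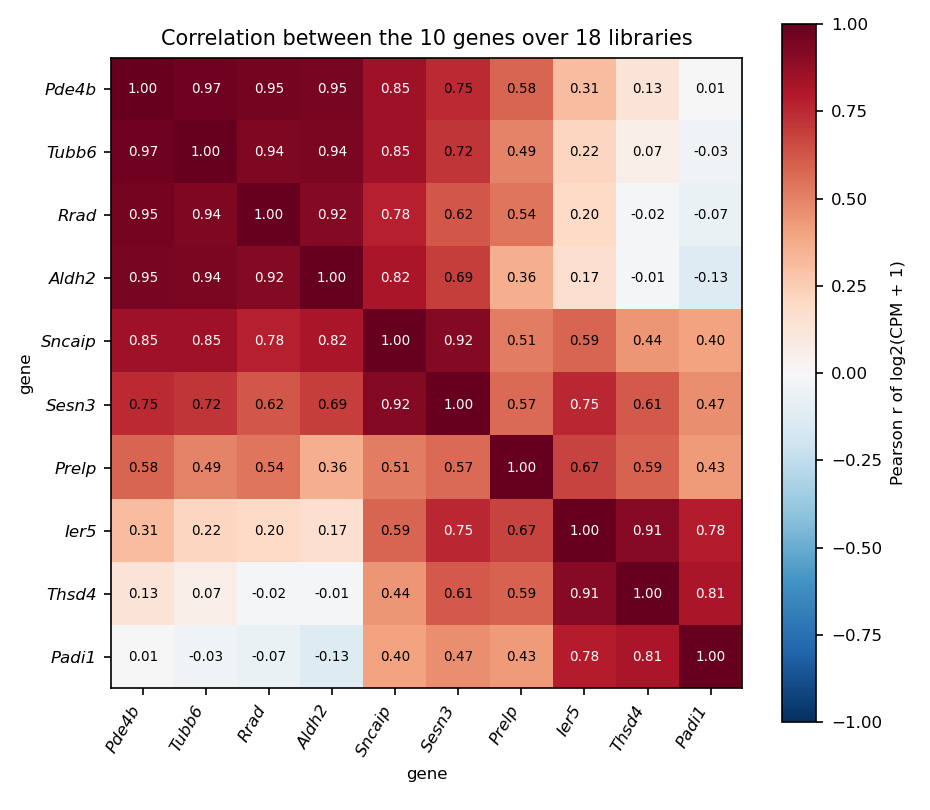
Pearson correlation of log2(CPM + 1) between the 10 genes over 18 libraries, from −1 (blue) to 1 (red). Pde4b, Tubb6, Rrad and Aldh2 form the darkest block at 0.917 or more, and Ier5 with Thsd4 reaches 0.909 while each correlates at no more than 0.310 with those 4.

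The genes most like each of the 10 over the same 18 libraries, by that correlation, were partly members of the set. Tubb6 was closest to Pde4b and Pde4b to Tubb6 (r = 0.974), and Thsd4 and Ier5 were closest to each other. Lamb1, a laminin chain, came next for Pde4b (0.961). Rrad was followed by Morc2a (0.963) and Slc2a4, the insulin-regulated glucose transporter (0.955), and Aldh2 by Ajuba (0.968) and the growth factor gene Pdgfa (0.964). Sesn3 was most like the atypical cadherin Fat1 and the homeobox gene En2 (0.939 each), Sncaip like the zinc transporter Slc39a4 (0.938) and Fat1 (0.934), and Prelp like Cp, which encodes ceruloplasmin (0.941), and Pycr1 (0.905). Eif2b2 came second for Ier5 (0.857) and Fcho1 for Thsd4 (0.873), and Padi1 was most like Rgl2 (0.900) and Insl6 (0.871). Lamb1 and Fat1 were themselves among the 20 genes called in the contrast that chose the 10. Their likeness to members of the set is therefore not independent of that choice.

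Relatives and pathway partners were examined in 11 lists with 198 tested genes, which leave the 10 out. In the contrast of the D542G and WT gate changes 1 of the 198 passed (0.109% of all genes did), and no direct paralog of any of the 10 on the lists did. The gate change itself was called in D542G for 19 higher and 5 lower, against 4.71% and 4.49% of all genes. In Y541S it was called for 20 higher and 3 lower, against 4.22% and 2.73% of all genes. In WT it was called for 9 higher and 6 lower, against 2.14% and 1.39% of all genes. The calls were 12.1%, 11.6% and 7.58% of the 198 in D542G, Y541S and WT, against 9.2%, 6.95% and 3.53% of all genes. The lists were drawn up with earlier results known, so nothing is read from these shares. Of the calls 8, 10 and 4, in the same order of genotypes, held in every fit that left out 1 library. With the WT libraries alone in the fit, no WT call was left. Without Y541S N 2 and Y541S ML 2, 9 pathway genes were called in Y541S, and of the Y541S calls named below those of Adcy3, Bag3, Tgm1, Sncg, Tuba1a and Aldh3a1 were lost.

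The 1 gene was Ltbp1, a latent TGF-beta binding protein that associates with the fibrillin microfibrils to which the Thsd4 product binds. It had 347, 286 and 282 CPM in D542G N and 134, 93.6 and 165 CPM in D542G ML. Levels were 230, 101 and 67.2 CPM in Y541S N and 213, 297 and 293 CPM in Y541S ML, and 17.2, 40.2 and 19.8 CPM in WT N and 146, 232 and 149 CPM in WT ML. The gates did not overlap in D542G, where N was above ML, nor in WT, where N was below ML, and in Y541S the ranges met. The gate change in D542G exceeded that in WT by 3.99 ± 0.60 (edgeR adjusted p = 0.0187), and the WT change alone was −2.77 ± 0.44 (adjusted p = 0.00568). D542G and Y541S changes alone, 1.22 ± 0.41 and −1.01 ± 0.41, did not pass (adjusted p = 0.0786 and 0.161). By p-value Ltbp1 ranked 8 in the D542G to WT contrast, the same contrast that chose the genes described here. The lists were drawn up with earlier results known, so its call there is not an independent test of the pathway. The call on the difference was lost in 6 of the 18 fits that left out 1 library (D542G N 1, D542G N 3, D542G ML 1, D542G ML 2, WT N 1 or WT ML 2; adjusted p up to 0.0787).

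In the whole microfibril and elastic fibre list (24 tested, Ltbp1 included) the gate change alone was called for 5 higher in D542G, 6 higher in Y541S, and 3 higher and 2 lower in WT (Ltbp1 and Papln), with list medians of 1.30, 1.80 and 0.77 against −0.03, −0.02 and −0.02 over all genes. Papln, a papilin with thrombospondin repeats, was lower in WT N by −2.23 ± 0.31 (edgeR adjusted p = 0.00288), and its D542G to WT difference of 2.27 ± 0.43 missed the threshold (adjusted p = 0.0618; 0.0169 without WT N 3). Adamtsl4, a close relative of Thsd4, rose in D542G N by 1.67 ± 0.34 (adjusted p = 0.00811), and in Y541S and WT it was at 1.14 ± 0.34 and 0.62 ± 0.34 (adjusted p = 0.0561 and 0.304). Ltbp2 rose by 2.78 ± 0.38 in D542G and 3.31 ± 0.38 in Y541S (adjusted p = 0.000676 and 0.000259), and Eln, the elastin gene, by 3.48 ± 0.46 in Y541S and 3.38 ± 0.46 in WT (adjusted p = 0.000553 and 0.00248).

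**Figure D4:**
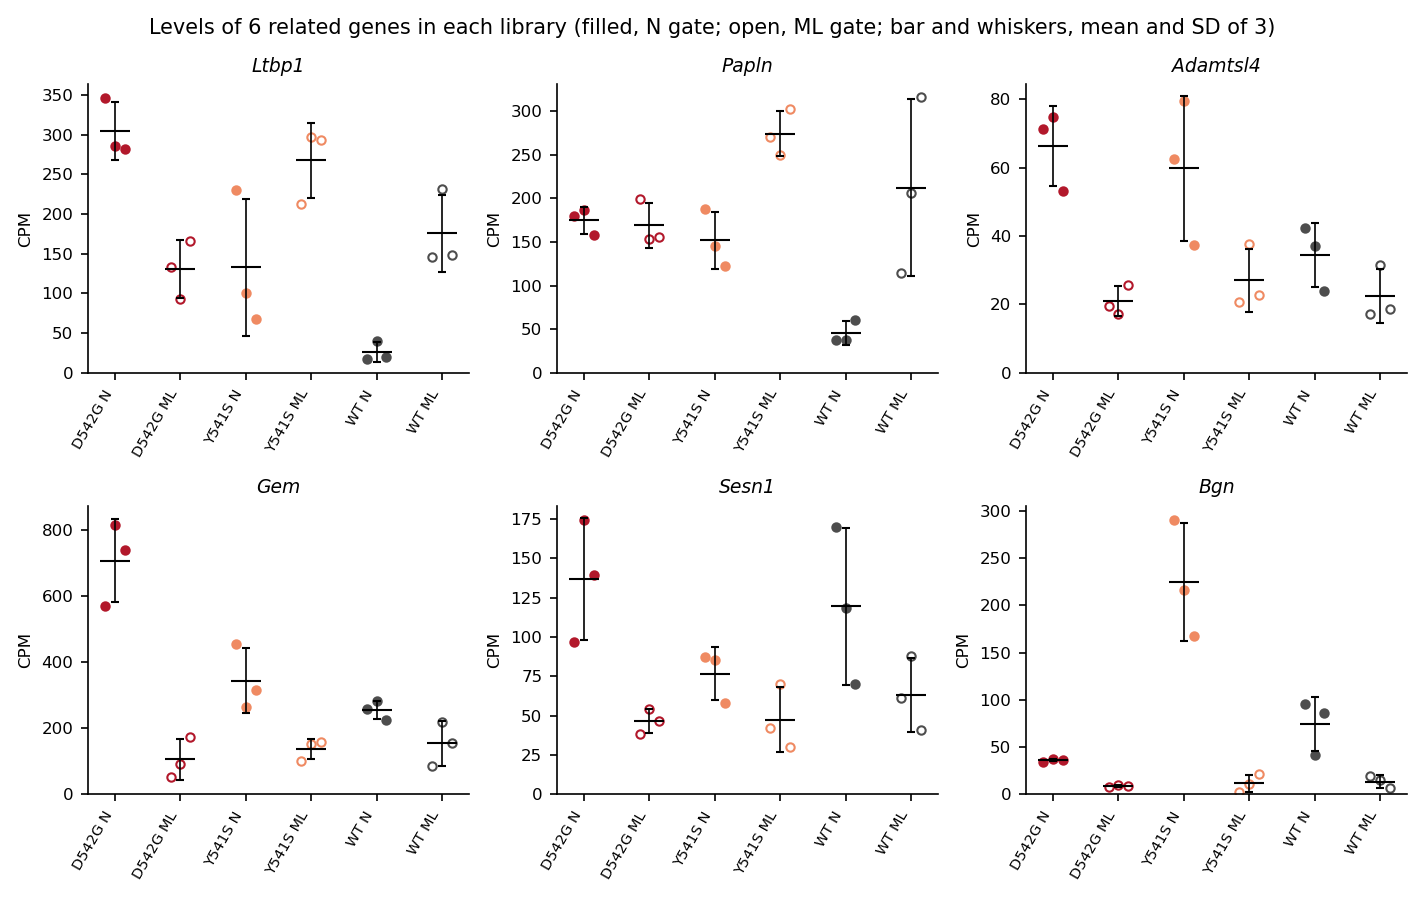
Levels in CPM of 6 related genes in each library (filled, N; open, ML; bar and whiskers, mean and SD of 3; linear axes from 0). Ltbp1 shows N above ML in D542G and N below ML in WT, and Bgn is highest in Y541S N.

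In the list of small leucine-rich proteoglycans (9 tested), to which Prelp belongs, Bgn (biglycan) was the only gene called. Its gate change was 2.04 ± 0.55 in D542G (edgeR adjusted p = 0.0328), 4.28 ± 0.61 in Y541S (adjusted p = 0.000862) and 2.47 ± 0.56 in WT (adjusted p = 0.0269). The D542G call was lost without any 1 of the 6 D542G libraries, the WT call without WT ML 1, WT ML 2, WT ML 3 or WT N 1, and both in the fit with pairs as blocks (adjusted p = 0.0684 and 0.0608). Dcn (decorin), which averaged 303 ± 60.5 CPM in D542G N and 219 ± 147 CPM in D542G ML (SD, n = 3), was not called in any genotype.

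Among RGK GTPases and calcium channel subunits (14 tested, 1 higher in D542G, 4 in Y541S and 1 in WT), Gem is the closest relative of Rrad. It rose in D542G N, with 707 ± 126 CPM in N and 106 ± 62.5 CPM in ML (SD, n = 3), a change of 2.73 ± 0.42 (edgeR adjusted p = 0.00141). In Y541S and WT it was 1.33 ± 0.40 and 0.73 ± 0.39 (adjusted p = 0.0592 and 0.301). The D542G to WT difference, 2.01 ± 0.56, did not pass (adjusted p = 0.220). The channel subunits Cacna1c, Cacnb4 and Cacna2d1 rose in Y541S N by 2.71 ± 0.46, 2.63 ± 0.40 and 5.06 ± 0.94 (adjusted p = 0.00287, 0.00140 and 0.00520).

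Of the cyclic AMP pathway (33 tested, 3 higher and 1 lower in D542G, 4 and 1 in Y541S, 1 and 2 in WT), the other Pde4 genes did not follow Pde4b. Pde4a was at 12.1 ± 3.62 CPM in D542G N and 29.5 ± 4.02 CPM in D542G ML, and its gate change was −1.29 ± 0.48 in D542G, −1.30 ± 0.48 in Y541S and −1.18 ± 0.48 in WT (edgeR adjusted p = 0.108, 0.127 and 0.179). Pde4d had changes of −0.37 ± 0.48 in D542G and −0.78 ± 0.48 in Y541S, and it was not called in WT either (adjusted p = 0.696, 0.364 and 0.249). The adenylyl cyclase gene Adcy3 and the phosphodiesterase gene Pde7a rose in N of both mutants, by 1.97 ± 0.49 and 1.13 ± 0.27 in D542G and by 2.30 ± 0.49 and 1.21 ± 0.27 in Y541S (adjusted p = 0.0212, 0.0176, 0.0115 and 0.0139). The D542G calls were each lost in 5 of 18 fits that left out 1 library. Adcy3 also rose in WT N (2.46 ± 0.49, adjusted p = 0.0172).

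Immediate early and heat shock genes (20 tested) were called higher in D542G for Egr1, Junb, Ier3 and Bag3 (1.89 ± 0.46, 1.12 ± 0.29, 1.32 ± 0.30 and 0.96 ± 0.26; edgeR adjusted p = 0.0194, 0.0255, 0.0145 and 0.0325), in Y541S for Bag3 and in WT for Dnajb1. The list median was 0.60 in D542G, 0.13 in Y541S and 0.30 in WT. Ier2 and Ier5l, the relatives of Ier5, had D542G gate changes of 0.92 ± 0.37 and 0.65 ± 0.48 (adjusted p = 0.134 and 0.440). The D542G calls of Egr1, Junb, Ier3 and Bag3 were lost in 3 to 5 of the 18 fits that left out 1 library.

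Of sestrin, FoxO and amino acid sensing genes (23 tested), Sesn1 and Irs2 were called in D542G. Sesn1 rose by 1.56 ± 0.38 (edgeR adjusted p = 0.0208), with 5 of 18 fits that left out 1 library losing the call, and Irs2 by 1.63 ± 0.38 (adjusted p = 0.0165), with 3 losing it. Sesn2 was at 0.17 ± 0.46 (adjusted p = 0.865). The difference between the D542G and WT changes was not called for Sesn1, Irs2 or Sesn2 (adjusted p = 0.719, 0.412 and 1).

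For the enzymes, Tgm1, a transglutaminase, fell in Y541S and WT in the peptidylarginine deiminase and cornified envelope list (16 tested) (−1.06 ± 0.28 and −1.29 ± 0.28; edgeR adjusted p = 0.0353 and 0.0242). Padi4, a relative of Padi1, had 31.8 ± 6.86 CPM in D542G N (SD, n = 3) and a D542G gate change of 1.28 ± 0.86 that did not pass (adjusted p = 0.388). Of aldehyde and alcohol dehydrogenases (20 tested), Aldh1a3, a retinoic acid enzyme of luminal progenitors, fell in N of all genotypes (−4.50 ± 0.68 in D542G, −4.19 ± 0.67 in Y541S and −3.18 ± 0.64 in WT; adjusted p = 0.00135, 0.00187 and 0.0172). Aldh3a1 rose in all (5.69 ± 0.85, 2.84 ± 0.74 and 5.54 ± 0.84; adjusted p = 0.00122, 0.0330 and 0.00469). Neither differed between D542G and WT by the test of the difference (adjusted p = 0.607 and 0.988).

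Tubulins (14 tested) included Tuba1c, which rose in D542G N by 1.15 ± 0.22 (edgeR adjusted p = 0.00500), Tubd1, which fell in D542G N by 1.49 ± 0.39 (adjusted p = 0.0284), and Tuba1a, which rose in Y541S N by 1.83 ± 0.44 (adjusted p = 0.0228). The other beta-tubulins were not called in any genotype: Tubb5 had 208 ± 30.6 CPM in D542G N and 114 ± 28.9 CPM in D542G ML (SD, n = 3; change 0.88 ± 0.48, adjusted p = 0.274) and Tubb2a 96.1 ± 1.46 CPM in D542G N and 86.3 ± 11.1 CPM in D542G ML (0.16 ± 0.25, adjusted p = 0.765). In the list of genes linked to Sncaip (11 tested) Sncg rose in Y541S (1.53 ± 0.41, adjusted p = 0.0353) and Siah1a in WT (1.29 ± 0.32, adjusted p = 0.0397). Of p53 targets (14 tested), Phlda3 rose and Bax and Gadd45a fell in D542G (1.01 ± 0.30, −0.91 ± 0.21 and −1.41 ± 0.40; adjusted p = 0.0488, 0.0149 and 0.0388), and Phlda3 rose in Y541S (2.20 ± 0.31, adjusted p = 0.000862). The D542G call of Phlda3 was lost in 15 of 18 fits that left out 1 library.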

How the data were processed

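The 18 RNA-seq libraries came from mammary cells sorted by flow cytometry, with RNA isolated by the RNeasy Micro Plus kit and libraries made with Nextera XT, per the labels' protocols. The genome build was GRCm38, per the submitters' processing notes. Which aligner, counting tool and strand setting were used is not stated in those sources. The authors deposited, for each library, the gene's width, its whole-number count and its RPKM. RPKM values were computed by the authors with a width equal to the gene span, introns included, for 85.6% of genes, and were used in no test; whether reads in introns were counted is not stated. Gene identifiers were matched to GENCODE M21 for 99.7%. Groups follow the titles.

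Counts were fitted in R 4.3.3 with edgeR 4.0.16 (filterByExpr with a minimum count of 10 and a minimum total of 15, TMM factors 0.850 to 1.10, a quasi-likelihood model of 6 group means with 12 residual degrees of freedom, biological coefficient of variation 0.652). Adjustment was by Benjamini-Hochberg across the 18298 genes of each contrast, and an adjusted p under 0.05 is a call. P-values measure the spread between libraries that the submitters call biological replicates. No replicate pair agreed within sampling noise (chi-square over its degrees of freedom 46.1 or more), and floors of 3 counts cover counting error only. Standard errors are the log2 change divided by the square root of F, and intervals (95%) use the t distribution on the residual degrees of freedom. The script was tested on simulated data.

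The 10 genes and the pathway and marker lists were chosen with earlier results of these data known. Named relatives are direct paralogs and, per list, up to 3 genes with the smallest p in the D542G to WT difference; others, such as Ltbp2, Eln, Tuba1c, Aldh3a1 and the channel subunits, were named after their values were seen because they were called. Similar genes are the 2 with the highest correlation, leaving out predicted genes and clone names; 1 similar gene and 1 list gene are not reported here. Alternatives were RLE scaling, DESeq2 1.42.0, limma-voom with quality weights (limma 3.58.1), no count filter, a filter of 1 CPM in 3 libraries, a block for pairs, only the libraries of a contrast, and leaving out each library. Leaving out WT N 3 and Y541S N 3 together, and Y541S N 2 and Y541S ML 2 together, was added after the data were seen. In each of the 9 N and ML pairs sharing genotype and number, deviations from the group means correlated (r = 0.168 to 0.556), so numbers were taken to pair these libraries; this comes from the data, not from the labels. List genes at 0 in all libraries, such as Tubb3 and Ogn, were not tested, and a 0 there says nothing about expression.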

Additional observations from a re-analysis of the deposited data

Results flagged for a closer look

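Ltbp1 was the 1 pathway gene called in the test of the difference between the D542G and WT gate changes: the N over ML change was 3.99 higher on the log2 scale in D542G than in WT (edgeR, adjusted p = 0.0187), with N above ML in D542G and N below ML in WT. The value was between 3.74 and 4.54 over the alternatives, and the adjusted p was 0.0435 with the pairs as blocks. The call was lost in 6 of 18 fits that left out 1 library, with an adjusted p of up to 0.0787. Ltbp1 ranked 8 by p-value in this contrast, which also chose the genes described here. The pathway lists were drawn up with earlier results known. The call is therefore not an independent test of the pathway. The Y541S N libraries spread widely, at 230, 101 and 67.2 CPM.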

How the results depend on the processing

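The difference of gate changes (D542G less WT) of the 10 genes kept its sign in all 270 combinations of gene and alternative (Padi1, with no count in WT N, by its sign alone). The genes were chosen by this difference, so its sign was largely fixed in advance and nothing is read from it. The gate changes alone kept their sign in 269 of 270 in D542G, 264 of 270 in Y541S and 269 of 270 in WT. The exceptions were values near 0 (Padi1, then Prelp and Sesn3, then Sncaip). Counts of calls over all genes moved far more. For the D542G to WT difference 20 genes were called, against 411 by DESeq2, 1254 by limma-voom, 404 without WT N 3 and Y541S N 3, and 3 to 149 with 1 library left out. For N against ML in D542G the count was 1684, against 3186, 5862 and 2849 in the same order, 3551 with the D542G libraries alone and 702 to 2545 with 1 library left out. In Y541S it was 1272, against 2504 by DESeq2, 2595 by limma-voom, 445 without Y541S N 2 and Y541S ML 2, and 571 to 2045 with 1 left out. In WT it was 646, against 2076, 5167 and 3310, 16 with the WT libraries alone and 157 to 2965 with 1 left out. Pathway genes called for the D542G to WT difference numbered 1, against 7, 18 and 5, 2 under the filter of 1 CPM and 0 to 2 with 1 left out. In D542G they numbered 24, against 54, 88 and 48, 66 with D542G alone and 8 to 42. In Y541S they numbered 23, against 43 by DESeq2, 43 by limma-voom, 9 without Y541S N 2 and Y541S ML 2, and 13 to 36. In WT they numbered 15, against 31, 70 and 53, 0 with WT alone and 4 to 50. Members called in Y541S numbered 7, and 5 to 7 with 1 left out.

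With the pairs as a replicate block the calls were 15 for the difference, 1955 in D542G, 1589 in Y541S and 900 in WT, and 6 of the 10 genes passed in Y541S, Sncaip being lost. WT N 3 had the lowest limma-voom weight (0.180). Without it the WT change of Ier5 was −1.55 and that of Rrad 0.57. The cause of these changes was not tested. Padi1, with at most 52 counts in Y541S N, limits what can be said of that gene.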
